A study of Homo sapiens with 23 samples.

Results

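Among 4 human multiple myeloma lines, 78 genes were expressed in a single line and close to silent in the other 3 when IRF4 was not targeted. They were selected on the libraries with the EV guide from 27905 genes with a symbol: the mean level was at least 20 CPM (counts over the library total, scaled to 1000000) in the own line and at most 0.2 CPM in each other line. Of the 78 genes, 14 belonged to H929, 10 to MM1S, 4 to OPM2 and 50 to RPMI-8226. A further 3 genes that met the cutoffs were left out as X-inactivation or Y-linked genes or for want of a symbol. Because the EV levels made the selection, the restriction in the EV libraries is a description and was not tested. The libraries with the IRF4 guide were used to measure how far the own line kept these genes and whether the other lines came to express them.

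RNA sequencing counts came from H929, MM1S, OPM2 and RPMI-8226, established lines of malignant plasma cells, each with a CRISPR guide RNA against IRF4 or a guide called EV. In both arms of every line the guide was induced by doxycycline for 48 hours, so the EV libraries carried the drug as well. There were 3 libraries for each of the 8 groups except MM1S with the EV guide, which had 2 (replicates 2 and 3). The labels do not say what EV stands for, whether a line was a single clone, or whether each replicate was its own culture. All p-values therefore measure the spread between these libraries only, which may be technical.

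IRF4 is a transcription factor that plasma cells and myeloma cells need, binding DNA alone or with ETS family partners. Plasma cells each express a single rearranged light chain, from the kappa or the lambda locus. The particular V segment in use is therefore a fingerprint of the clone from which a line was grown. Myeloma genomes also carry deletions and translocations that differ between patients, and germline genes such as the MAGE family can be switched on in a tumour, so that lines of the same disease express different genes outside the plasma cell programme.

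IRF4 mRNA fell in every line. Its mean in H929 went from 2050 to 705 CPM (log2 fold change -1.58 ± 0.18, SE). MM1S had 711 and 270 CPM (-1.37 ± 0.20), OPM2 had 1620 and 1110 (-0.66 ± 0.18), and RPMI-8226 had 446 and 215 (-1.10 ± 0.18). The groups did not overlap in H929, MM1S or RPMI-8226. In OPM2 they did, with 958, 1400 and 958 CPM against 1540, 2000 and 1310, though each IRF4 library was below the EV library of the same number. Against OPM2 EV replicate 3 alone the fall of IRF4 in OPM2 was not called (-0.34, adjusted p = 0.361). Fold changes here and below compare the IRF4 guide with the EV guide of the same line in edgeR's quasi-likelihood test, and a gene was called at a Benjamini-Hochberg adjusted p under 0.05 over all 16468 genes tested, among which were all 78.

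Library totals ran from 6907390 to 28486960 counts, so that a single count was worth 0.0351 CPM in the deepest library and 0.145 CPM in the shallowest. The 2 MM1S EV libraries were shallow (8662035 and 9366370 counts), and levels near 0.2 CPM there rest on very few counts. Of 8 plasma cell markers, 7 or 8 were at 1 CPM or more in every group, and SLAMF7 was near that level in RPMI-8226 (0.995 CPM with the EV guide and 2.11 with the IRF4 guide). Summed T and NK cell markers went from between 13.1 and 14.7 CPM to between 117 and 132 in H929, most of it CD3E, and summed myeloid markers from between 0.255 and 0.358 to between 31.9 and 34.0, most of it S100A9. GNLY (0.198 to 11.7 CPM), NKG7 (0.57 to 8.68), S100A8 (0 to 2.66), CSF1R (0.17 to 2.68) and the B cell factor PAX5 (0.537 to 18.3) rose there too, while KLRD1, MPO and FCGR3A had no count in H929 with the IRF4 guide. The part of other cell types in the H929 results was not tested. Stromal and epithelial markers summed to 229 to 238 CPM in RPMI-8226 with the EV guide and to 194 to 210 with the IRF4 guide, nearly all from EPCAM and KRT18, with COL1A2, DCN and LUM at 0 counts. In bulk RNA, fewer cells of a type and less RNA per cell cannot be told apart.

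Traces of these genes were found in lines other than their own, with both guides. The third IRF4 library of H929 stood apart by the number of genes seen, and the second IRF4 library of OPM2 by the level of some H929 genes. The third IRF4 library of H929 had at least 1 count for 42 of the 50 RPMI-8226 genes, against 30 and 22 in the other IRF4 libraries of H929 and 10 to 19 in its EV libraries. The median share of the RPMI-8226 level in that library was 0.175%. The second IRF4 library of OPM2 held 0.591 CPM of the H929 segment IGKV3-7, 0.591 of IGKV3-20 and 0.689 of CDKN2C. The other IRF4 libraries of OPM2 had at most 0.177 CPM of any of them, and its EV libraries at most 0.263. By number of genes seen, the second IRF4 library of OPM2 did not stand apart, with 10 of the 14 H929 genes. OPM2 EV replicate 3 had 11 of them and RPMI-8226 IRF4 replicate 3 had 10. The source of these traces was not tested. Without the third IRF4 library of H929 the gains of PPL (adjusted p = 0.0537), RASAL1 (0.0841), CACNG4 (0.0519) and TNFAIP2 (0.0716) in H929, described further on, were not called, and without the second IRF4 library of OPM2 that of CACNG4 in OPM2 was not (0.0501).

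**Figure D1:**
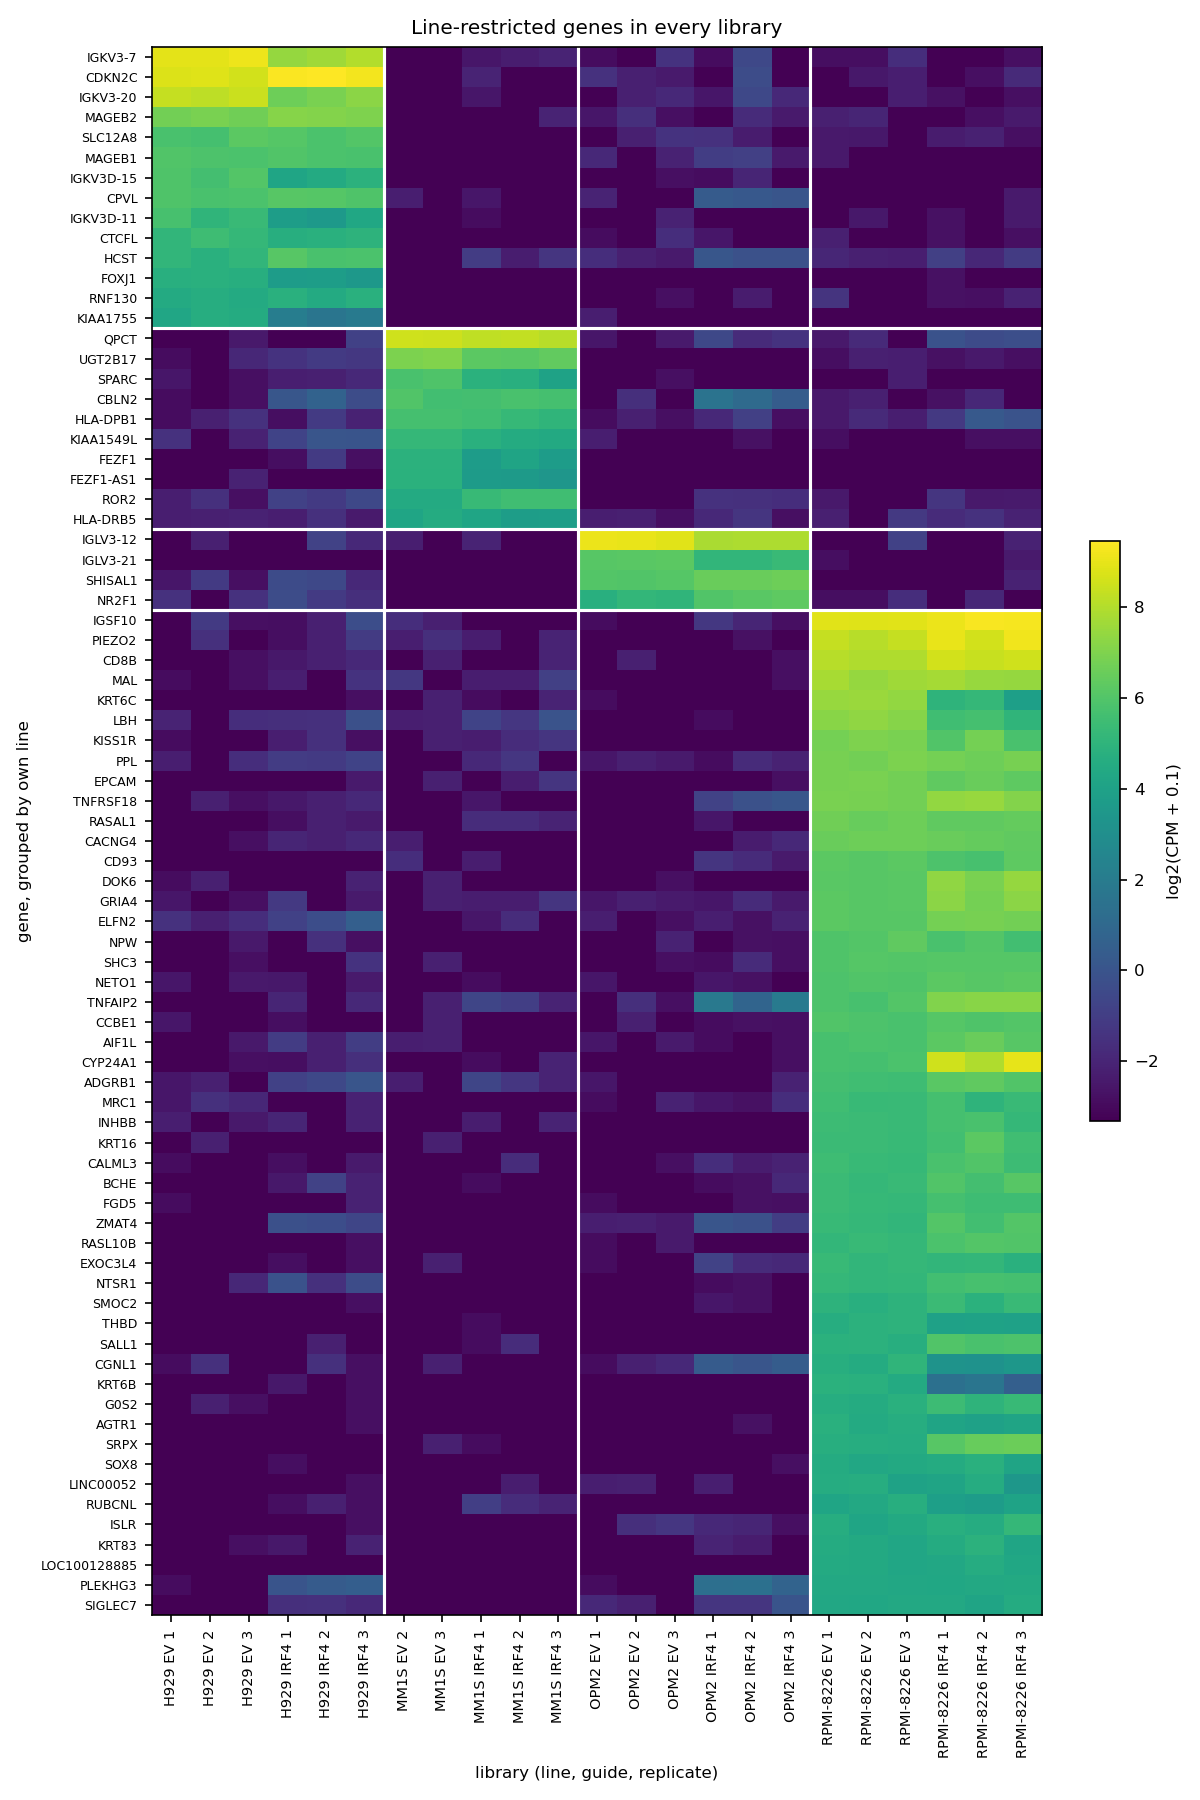
Level of the 78 genes (rows, grouped by own line and ordered by EV level) in all 23 libraries (columns) as log2(CPM + 0.1). The bright blocks on the diagonal are the own lines, which chose the genes; faint cells off the diagonal are more frequent in IRF4 libraries of H929 and OPM2.

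At baseline the 78 genes spanned a wide range of levels. Light chain V segments led 2 of the 4 lists, though which segment each line had rearranged was not tested. In H929 the highest was the kappa variable segment IGKV3-7 at 515 ± 44.0 CPM (SD, n = 3), in OPM2 the lambda segment IGLV3-12 at 512 ± 31.9 (n = 3), in MM1S QPCT, which encodes the glutaminyl cyclase that caps peptides with pyroglutamate, at 363 ± 6.76 (n = 2), and in RPMI-8226 the secreted immunoglobulin superfamily protein IGSF10 at 471 ± 13.2 (n = 3). The median EV level was 58.9 CPM for the H929 list, 44.5 for MM1S, 69.6 for OPM2 and 42.0 for RPMI-8226. The 2 lowest genes of each list were KIAA1755 (22.2 CPM) and RNF130 (23.3) in H929, HLA-DRB5 (20.8) and ROR2 (22.5) in MM1S, NR2F1 (32.0) and SHISAL1 (65.9) in OPM2, and SIGLEC7 (20.3) and PLEKHG3 (20.8) in RPMI-8226. Below the cutoff, among genes within 0.2 CPM elsewhere, the 2 highest were STOX2 (10.9) and TDRD15 (10.7) in H929. In MM1S they were LOXL4 (16) and CD200R1 (14.6), in OPM2 WT1 (17.3) and RERG (13.5), and in RPMI-8226 RASGRF1 (18.4) and PANX2 (18.4). Genes left out because another line was just above 0.2 CPM included the OPM2 segments IGLV3-10 (716 CPM in OPM2 and 0.223 elsewhere) and IGLV3-16 (451 and 0.238) and the H929 gene NAPSA (107 and 0.253).

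With the IRF4 guide the own line kept 66 of the 78 genes at 20 CPM or more, and each list held genes that rose and genes that fell. Over the 78 genes, 24 fell, 23 rose and 31 were not called in the own line. In H929 7 genes fell and 3 rose, in MM1S 5 fell and 1 rose, in OPM2 2 fell and 2 rose, and in RPMI-8226 10 fell and 17 rose.

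These counts stand against a large background of change. Over all genes tested, 32.9% rose and 26.1% fell in H929, 19.4% and 15.2% in MM1S, 23.2% and 20.2% in OPM2, and 19.2% and 14.7% in RPMI-8226. Among genes with at least 20 CPM in the EV libraries, which is the class the own-line genes belong to, 28.2% rose and 45.0% fell in H929, 22.7% and 26.3% in MM1S, 18.2% and 38.0% in OPM2, and 17.8% and 23.2% in RPMI-8226. The 7 falls of 14 in H929 and the 10 falls of 50 in RPMI-8226 are near those shares. In MM1S 5 of 10 genes fell, a larger share than the 26.3% of that class, and in OPM2 2 of 4 against 38.0%. Both lists are short, and these differences were not tested. Rises in RPMI-8226, 17 of 50, were more frequent than the background of that class, a difference that was not tested, since the EV libraries enter both the choice and the contrast. The median log2 change was -0.26 for the H929 list, -0.48 for MM1S, -0.36 for OPM2 and 0.12 for RPMI-8226, against -0.15, -0.02, -0.12 and -0.03 for all genes of at least 20 CPM and 0.10, 0.07, 0.03 and 0.04 for all genes tested.

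**Figure D2:**
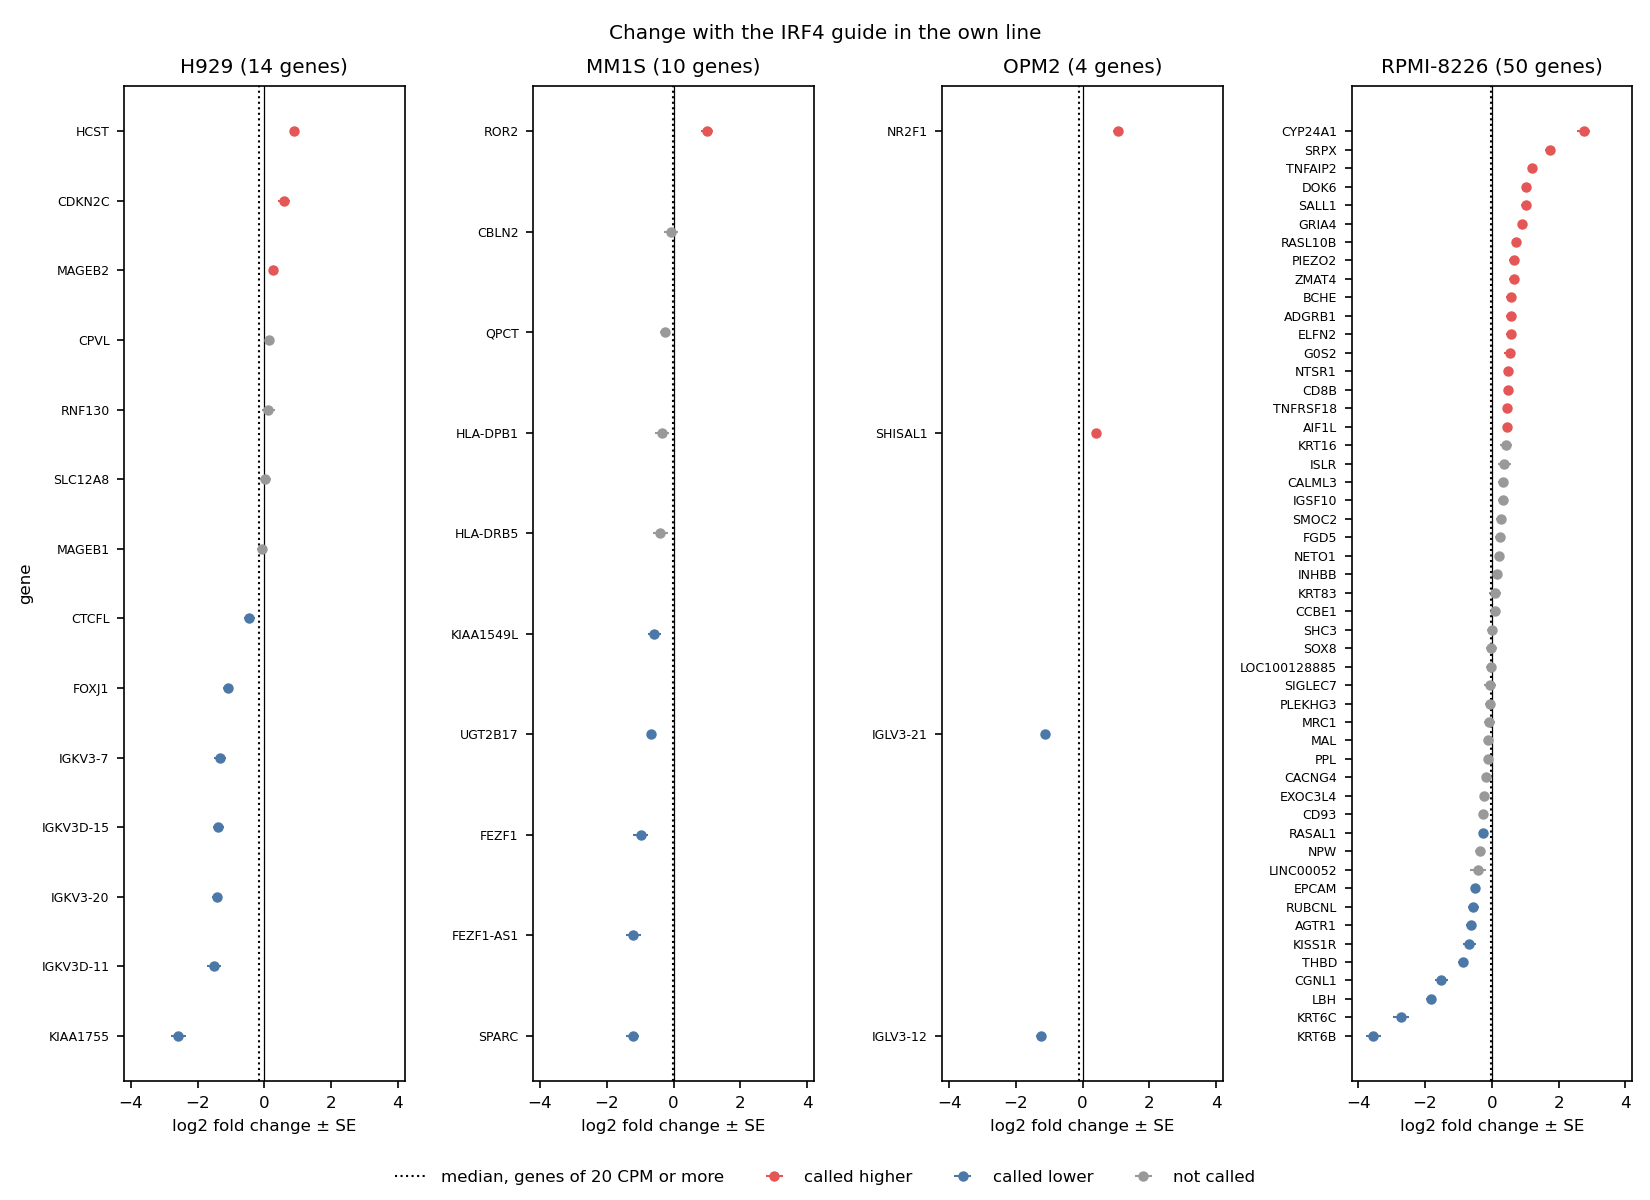
Log2 fold change (IRF4 guide over EV guide, ± SE) of every gene in its own line, 1 panel per line, with called rises in red, called falls in blue and genes not called in grey; the dotted line is the median of genes with at least 20 CPM. RPMI-8226 spans from KRT6B at -3.55 to CYP24A1 at 2.75.

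In H929 the light chain V segments fell together. IGKV3-7 (Entrez 28915, chromosome 2, 88978468 to 88978984 on GRCh38) had 493, 486 and 565 CPM with the EV guide and 175, 202 and 254 with the IRF4 guide, a log2 change of -1.33 ± 0.17 (adjusted p = 2.73e-06) that was not called in DESeq2 (-1.30, adjusted p = 0.245). IGKV3-20 went from 324 ± 29.2 to 124 ± 26.9 CPM (-1.42), IGKV3D-15 from 59.5 ± 8.02 to 23.6 ± 5.66 (-1.38) and IGKV3D-11 from 42.1 ± 10.2 to 15.2 ± 4.22 (-1.50; SD, n = 3 each). The highest IRF4 library was below the lowest EV library for each of the 4 segments. The 4 segments are near-identical copies of the same V family, between which the counting could split the reads of a single rearranged gene, so they are not 4 independent observations. IGKC, the kappa constant gene, moved by the same amount, from 6580 ± 480 to 2550 ± 510 CPM (-1.41 ± 0.45, adjusted p = 0.0130).

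The H929 genes that rose included a cell cycle inhibitor and an immune adaptor. CDKN2C (Entrez 1031, chromosome 1, 50960745 to 50974634), which encodes the CDK4 and CDK6 inhibitor p18INK4C, had 440, 454 and 390 CPM with the EV guide and 675, 709 and 605 with the IRF4 guide (0.59 ± 0.17, adjusted p = 0.00646). All IRF4 libraries were above all EV libraries, but the call was lost in DESeq2 (0.63, adjusted p = 0.717). HCST (Entrez 10870, chromosome 19), the DAP10 adaptor that carries signals of the NKG2D receptor in NK and T cells, rose from 31.9 ± 3.91 to 61.1 ± 8.02 CPM (0.89 ± 0.13, adjusted p = 1.14e-06). Its receptor partner KLRK1 had no count in any line. MAGEB2, a cancer-testis antigen of the X chromosome, rose slightly, from 110 ± 8.12 to 136 ± 7.68 CPM (0.27 ± 0.11, adjusted p = 0.0446), a call that was lost without H929 IRF4 replicate 1, 2 or 3 or H929 EV replicate 1 or 3 (adjusted p from 0.0683 to 0.236) and without RPMI-8226 EV replicate 1 or 2 (0.0517 and 0.0502). Its neighbour MAGEB1 was at 59.9 and 58.8 CPM and was not called.

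Other H929 genes fell or were not called. KIAA1755 had the largest fall, from 18.8, 25 and 22.9 CPM to 4.26, 3.09 and 3.68 (-2.58 ± 0.22, adjusted p = 1.06e-09), which left 16.5% of the EV level. FOXJ1, the transcription factor that switches on motile cilia genes, fell from 26.7 ± 1.09 to 12.9 ± 1.34 CPM (-1.09 ± 0.16). CTCFL, the testis paralog of the insulator protein CTCF, went from 38.3 ± 5.72 to 28.5 ± 2.60 CPM (-0.45 ± 0.17, adjusted p = 0.0221). That last call was lost without H929 IRF4 replicate 1, IRF4 replicate 2 or EV replicate 2, with adjusted p from 0.0640 to 0.113. SLC12A8, RNF130 and CPVL, a carboxypeptidase known from macrophages, were not called, at log2 changes of 0.02, 0.12 and 0.15.

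In MM1S 5 of 10 genes fell. SPARC, a collagen-binding glycoprotein of the extracellular matrix (Entrez 6678, chromosome 5, 151661096 to 151686915), had 55.7 and 61.0 CPM in the EV libraries and 29.0, 26.4 and 16.5 in the IRF4 libraries (-1.22 ± 0.20, adjusted p = 1.90e-05). UGT2B17, which attaches glucuronic acid to androgens and is a common germline deletion, fell from 126 ± 6.26 (n = 2) to 77.5 ± 6.16 CPM (n = 3; -0.68 ± 0.12). The neighbouring UGT2B15 stood at 12.7 CPM in MM1S with the EV guide and 6.76 with the IRF4 guide, and at 0 in the EV libraries of the other lines. FEZF1, a zinc finger factor of the developing forebrain, and the overlapping antisense RNA FEZF1-AS1 fell by 0.98 ± 0.22 and 1.20 ± 0.23 on the log2 scale, from 29.8 to 14.8 and from 28.3 to 11.9 CPM. The sources used here do not give the strand use of the counting, and reads of the pair cannot be told apart. KIAA1549L fell from 37.0 to 24.3 CPM (-0.57 ± 0.20, adjusted p = 0.0289), and leaving out MM1S IRF4 replicate 2 or 3 or EV replicate 2 or 3 ended that call (adjusted p from 0.0866 to 0.143).

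ROR2, a receptor tyrosine kinase for WNT5A, was the only MM1S gene that rose. It had 22.8 and 22.2 CPM with the EV guide and 39.7, 46.8 and 46.6 with the IRF4 guide (1.00 ± 0.18, adjusted p = 6.85e-05). QPCT kept 82.4% of its level (368 and 358 CPM against 304, 317 and 277; -0.25 ± 0.15, adjusted p = 0.198) without overlap of the groups. The class II genes HLA-DPB1 and HLA-DRB5 were at 76.0% and 73.7% of their EV levels and were not called (-0.35 and -0.39). With MM1S fitted alone QPCT, HLA-DPB1 and HLA-DRB5 were all called lower (adjusted p = 0.00264, 0.0157 and 0.0301). QPCT was also called lower by DESeq2 (0.0221) and, with HLA-DPB1, by the replicate block (0.0106 and 0.00598). Of the linked class II genes that were no members, HLA-DPA1 and HLA-DRB1 fell by 0.64 and 0.70, and HLA-DRA (-0.66, adjusted p = 0.0815) and HLA-DQA1 (-0.83, 0.290) were not called. CD74 (-0.09, 0.852), the gene of the class II chaperone on chromosome 5, was not called either. CIITA, the master regulator of class II transcription, went from 39.4 to 17.8 CPM (-1.10 ± 0.17, adjusted p = 5.93e-06). CBLN2, a secreted organiser of synapses, was at 56.3 CPM with the EV guide and 52.3 with the IRF4 guide and was not called.

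The 4 OPM2 genes divided evenly. IGLV3-12 (Entrez 28802, chromosome 22, 22771833 to 22772582) had 540, 520 and 477 CPM with the EV guide and 228, 241 and 234 with the IRF4 guide (-1.24 ± 0.15, adjusted p = 8.18e-07), a call lost in DESeq2 (-1.21, adjusted p = 0.602). IGLV3-21 went from 73.3 ± 2.41 to 36.1 ± 3.83 CPM (-1.13 ± 0.13). As in H929, the constant gene of the same locus moved alike, IGLC3 from 4110 ± 288 to 1940 ± 177 CPM (-1.19 ± 0.23), and the V segments may share reads. NR2F1, an orphan nuclear receptor of neural crest and brain development, rose from 27.1, 35.9 and 32.9 to 64.1, 72.6 and 78 CPM (1.06 ± 0.16, adjusted p = 8.34e-06). SHISAL1 rose from 65.9 ± 2.28 to 94.9 ± 3.28 CPM (0.41 ± 0.13, adjusted p = 0.0141). That call was lost without OPM2 IRF4 replicate 3 (0.39, adjusted p = 0.0518).

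RPMI-8226 had the longest list, and its keratins went different ways. KRT6C (Entrez 286887, chromosome 12, 52468516 to 52473805), a type II keratin of stratified epithelia, had 179, 184 and 167 CPM with the EV guide and 31.9, 36.2 and 14.7 with the IRF4 guide (-2.72 ± 0.23, adjusted p = 7.48e-07). KRT6B, 16.4 kb away, fell from 28.6, 27.9 and 22.6 to 2.54, 3.08 and 1.37 CPM (-3.55 ± 0.23, adjusted p = 3.43e-10), the largest change of all 78 and a loss of 11.7-fold. The IRF4 and EV libraries of both genes were far apart, and reads may be split between these near-identical genes. KRT16, the type I keratin that pairs with KRT6, stood at 41.1 ± 1.81 and 57.2 ± 16.8 CPM (0.43 ± 0.17, adjusted p = 0.0630), and the hair keratin KRT83 at 21.2 and 23.7. A replicate block within the line called KRT16 higher (0.41, adjusted p = 0.00549).

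Further RPMI-8226 genes fell or were not called, in a list where 10 of 50 fell and 17 rose. EPCAM, an epithelial adhesion molecule, fell from 115 ± 6.62 to 85 ± 9.02 CPM (-0.49 ± 0.12). CGNL1, a protein of cell junctions, fell from 26.1, 23.3 and 32.8 to 9.37, 9.18 and 10.9 CPM (-1.51 ± 0.19, adjusted p = 5.13e-07). LBH, a transcriptional cofactor first known from limb and heart buds, had 148, 162 and 141 CPM against 46.3, 52.6 and 33.5 (-1.82 ± 0.15, adjusted p = 1.30e-09). THBD, the thrombin receptor of endothelium, fell from 28.3 ± 3.22 to 16.2 ± 0.392 CPM (-0.85 ± 0.15), while CD93, 29.7 kb away, was at 73.3 and 63.9 CPM and was not called. The junction and raft proteins PPL and MAL were at 94.7% and 95.4% of their EV levels and were not called. No overlap between groups was seen for EPCAM, CGNL1, LBH or THBD.

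Receptors for hormones and peptides moved in both directions. KISS1R, the kisspeptin receptor, had 112, 126 and 118 CPM with the EV guide and 64.5, 112 and 54.8 with the IRF4 guide (-0.67 ± 0.19, adjusted p = 0.0107). The call was lost when RPMI-8226 was fitted alone (-0.70, adjusted p = 0.0710) and without RPMI-8226 IRF4 replicate 1 (-0.56, adjusted p = 0.0501). AGTR1, the angiotensin II receptor, fell from 25.3 to 17.1 CPM (-0.61 ± 0.15), and NTSR1, the neurotensin receptor, rose from 35.3 to 51.5 (0.50 ± 0.14). RUBCNL, which acts in autophagy, fell from 21.7 to 15.1 CPM (-0.55 ± 0.16), a call lost without RPMI-8226 EV replicate 3 (-0.44, adjusted p = 0.0648). RASAL1, which turns off RAS, went from 98.2 to 84.4 CPM (-0.27 ± 0.10, adjusted p = 0.0418), and the call was lost without RPMI-8226 IRF4 replicate 1 or 2 or EV replicate 1, 2 or 3 (adjusted p from 0.0552 to 0.180).

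The largest rise among the 78 genes was that of CYP24A1 (Entrez 1591, chromosome 20, 54143538 to 54173986), the enzyme that inactivates vitamin D and a classical target of the vitamin D receptor. It had 54.1, 51.2 and 56.9 CPM with the EV guide and 370, 244 and 510 with the IRF4 guide, 6.71-fold in the fit (2.75 ± 0.20, adjusted p = 4.10e-08). The lowest IRF4 library was more than 4 times the highest EV library, while the IRF4 libraries differed among themselves more than for most genes (SD 133). The receptor gene VDR stood at 35.9 and 43.4 CPM in RPMI-8226 and was not called (0.22 ± 0.09, adjusted p = 0.0506). In H929, where VDR rose from 96.6 to 177 CPM (0.83 ± 0.08), CYP24A1 was at most 0.227 CPM in any library.

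SRPX, a sushi repeat protein, followed, with 26.0, 24.8 and 24.1 CPM against 70.2, 90.1 and 96.8 (1.73 ± 0.13, adjusted p = 1.93e-09). TNFAIP2, a gene induced by tumour necrosis factor, had 59.0, 54.2 and 66.0 CPM against 132, 147 and 148 (1.21 ± 0.14, adjusted p = 4.99e-07). Both pairs of groups were well separated. DOK6, an adaptor of receptor tyrosine kinases, doubled from 73.1 ± 1.10 to 153 ± 30.3 CPM (1.02 ± 0.13), and SALL1, a zinc finger factor of kidney and limb development, from 28.3 ± 1.86 to 59.1 ± 3.40 (1.01 ± 0.14). GRIA4, a subunit of AMPA glutamate receptors, rose from 72.7 to 139 CPM (0.89 ± 0.12).

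Among the most abundant RPMI-8226 genes the rises were moderate. PIEZO2, a mechanically gated ion channel, went from 308 ± 31.1 to 501 ± 98.4 CPM (0.66 ± 0.14, adjusted p = 0.00106). CD8B, the beta chain of the CD8 coreceptor of T cells, rose from 276, 246 and 243 to 393, 334 and 378 CPM (0.48 ± 0.10, adjusted p = 0.000249). CD8A, its usual partner, stood at only 3.65 and 5.89 CPM in the same cells, and CD3D and CD3E were at 0.452 CPM or less. TNFRSF18, the costimulatory receptor GITR, rose from 114 ± 5.98 to 163 ± 22.5 CPM (0.47 ± 0.11). The other 8 rises, among them the cholinesterase gene BCHE, the lipolysis inhibitor G0S2, ELFN2, AIF1L and ADGRB1, lay between 0.47 and 0.71 on the log2 scale. The G0S2 call was lost without RPMI-8226 IRF4 replicate 1 (adjusted p = 0.0628) or EV replicate 2 (0.0519).

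**Figure D3:**
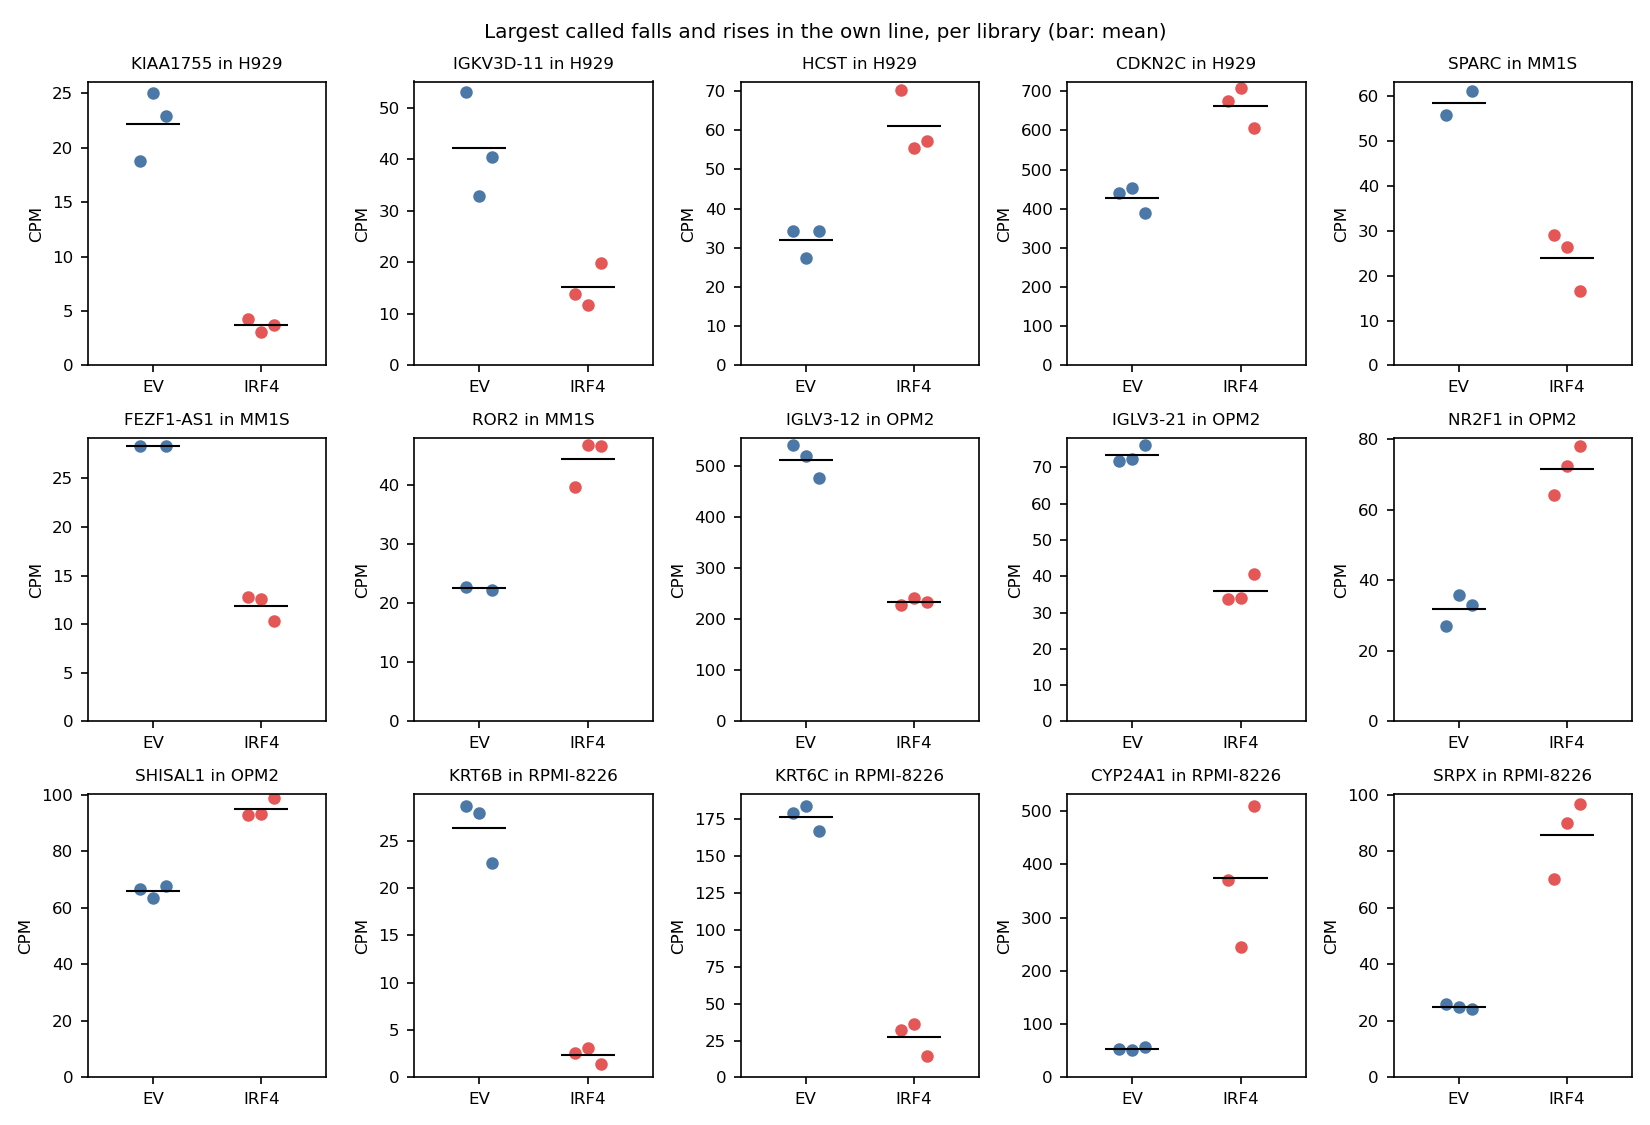
CPM per library (points) with the group mean (bar) for up to 2 largest called falls and 2 largest called rises in each own line, EV guide in blue and IRF4 guide in red, each axis starting at 0. Only genes whose groups do not overlap were drawn. KRT6C goes from a mean of 177 to 27.6 CPM and CYP24A1 from 54.1 to 374.

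The replicate numbers paired the libraries of H929, OPM2 and RPMI-8226, and in RPMI-8226 the block on the number brought in 7 further calls. IGSF10, at 481, 456 and 476 CPM against 541, 653 and 639, was called higher with the block (0.32, adjusted p = 0.000766) and not without it (0.33 ± 0.15, adjusted p = 0.0951). KRT16, CALML3 (0.35) and NETO1 (0.22) were likewise called higher with it, and NPW (-0.34), LINC00052 (-0.41) and CD93 (-0.27) lower, with adjusted p from 0.00525 to 0.0369. Without the block their adjusted p ranged from 0.0630 to 0.225.

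In the other 3 lines the same genes stayed low. Of 234 combinations of a gene with another line, 39 were called higher with the IRF4 guide, 0 lower, and 195 were not called. Genes at 0.2 CPM or less could hardly fall, so the absence of falls carries no information. Most of them passed the count filter through their own line: with each line fitted alone, only 14 of the 39 gains were tested, and those 14 were called. The 39 gains came from 28 genes, 17 of which gained in 1 other line and 11 in 2, while 50 genes gained in none. H929 gained 18 of 64 genes of other lines, OPM2 16 of 74, MM1S 3 of 68 and RPMI-8226 2 of 28. All genes tested with at most 0.2 CPM in the EV libraries of a line served as background. Of these, 31.4% were called higher in H929, 22.6% in OPM2, 5.67% in MM1S and 13.6% in RPMI-8226. In each line the share of gains was near that value or below it. Background genes could also pass the count filter through the IRF4 libraries of that line, so the 2 shares are not strictly alike and were not tested.

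The levels reached were low. Only 5 genes in 7 combinations came to 1 CPM or more, the highest was 2.93 CPM, and 22 of the 39 gains stayed under 0.5 CPM. As a share of the level in the own line's EV libraries, the gains had a median of 1.06% and a highest value of 10.6%. Combinations that were not called had a median of 0.0411% and a highest value of 1.32%. In 68 combinations the IRF4 libraries had no count at all, and in 105 the EV libraries had none. Without the third IRF4 library of H929, which held traces of most RPMI-8226 genes, 15 gains were called in H929. Without H929 EV replicate 1 there were 11.

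PLEKHG3 had the highest ratio of counts among the gains with any count in the EV group, with wide intervals that overlap those of TNFAIP2 and CBLN2. Its own line RPMI-8226 kept it at 20.8 and 20.6 CPM. OPM2 had 0.0364, 0 and 0 CPM with the EV guide and 2.44, 2.56 and 1.6 with the IRF4 guide, a count of 1 over the EV group, for a ratio of 130 with a 95% counting interval from 23 to 5160 (log2 change 6.44 ± 0.52, adjusted p = 1.20e-10). H929 had 0.0365, 0 and 0 CPM against 0.913, 1.19 and 1.32, again 1 count in the EV group (ratio 65.5, from 11.3 to 2630). MM1S had no count in any library. The rise in OPM2 differed from the change in RPMI-8226 by 6.51 on the log2 scale. That difference is a description, since the gene was picked for its call in OPM2.

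TNFAIP2 reached the highest level. In OPM2 it had 0, 0.234 and 0.0439 CPM with the EV guide (3 counts) and 3.45, 1.62 and 3.72 with the IRF4 guide (ratio 59.1, counting interval 19.9 to 289; log2 change 5.58 ± 0.52, adjusted p = 5.58e-09). In its own line it rose as well, so the gene went up in both. EXOC3L4, which was not called in its own line, lies 10.9 kb from TNFAIP2 on chromosome 14 and was also called higher in OPM2, from 0.0121 to 0.280 CPM (1 count in the EV group; ratio 17.5, from 2.81 to 722).

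CBLN2, an MM1S gene, gained in both H929 and OPM2. OPM2 had 0, 0.234 and 0 CPM against 2.80, 2.07 and 1.20 (2 counts in the EV group; ratio 61.1, from 16.6 to 510), and H929 had 0.0365, 0 and 0.0432 against 0.989, 1.55 and 0.681 (2 counts; ratio 28.1, from 7.40 to 238). In MM1S itself the gene was not called. CGNL1 went opposite ways: it fell in RPMI-8226, while in OPM2 it rose from 0.0364, 0.117 and 0.175 to 1.19, 0.935 and 1.24 CPM (3.27 ± 0.52, adjusted p = 8.44e-06). The 2 changes differed by 4.78, again a description for a gene picked by its rise in OPM2. CPVL, an H929 gene, rose in OPM2 from 0.146, 0 and 0 to 1.19, 1.03 and 0.931 CPM (3.73 ± 0.52, adjusted p = 1.16e-06).

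Several immune genes were among the gains below 1 CPM. HCST rose in OPM2 from 0.141 ± 0.0685 to 0.852 ± 0.102 CPM (2.33 ± 0.43) and in its own line as well. TNFRSF18 had no count in the EV libraries of OPM2 and 0.467, 0.787 and 0.975 CPM with the IRF4 guide, at least 14.1-fold higher with a floor of 3 counts over the EV group. HLA-DPB1 in RPMI-8226 had 0.0804, 0.191 and 0.111 CPM against 0.341, 1.08 and 0.869 (2.43 ± 0.59, adjusted p = 0.00194). This gain was not tested with RPMI-8226 fitted alone, as HLA-DPB1 passed the count filter only through libraries of another line. In the same line HLA-DRA rose from 7.02 to 24.9 CPM and CIITA from 4.34 to 7.80. QPCT, the other gain of RPMI-8226, went from 0.0906 to 0.742 CPM (2.54 ± 0.63).

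The remaining gains in H929 included genes of neural or developmental use. ZMAT4 had no count in the EV libraries of H929 and 0.761, 0.713 and 0.545 CPM with the IRF4 guide, at least 13.2-fold higher. ELFN2 (0.197 to 0.844 CPM), KIAA1549L (0.128 to 0.785), ADGRB1 (0.0641 to 0.668, from 3 counts; ratio 13.2, from 4.18 to 66.6) and NTSR1 (0.0576 to 0.585) were called higher there too. MM1S, whose EV group was the smallest and shallow, gained HCST, RASAL1 and RUBCNL at 0.188 to 0.260 CPM from 0 counts, by at least 1.20 to 2.00-fold. All 3 calls were lost without MM1S IRF4 replicate 1, MM1S EV replicate 2 or MM1S EV replicate 3, and with the replicate block.

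**Figure D4:**
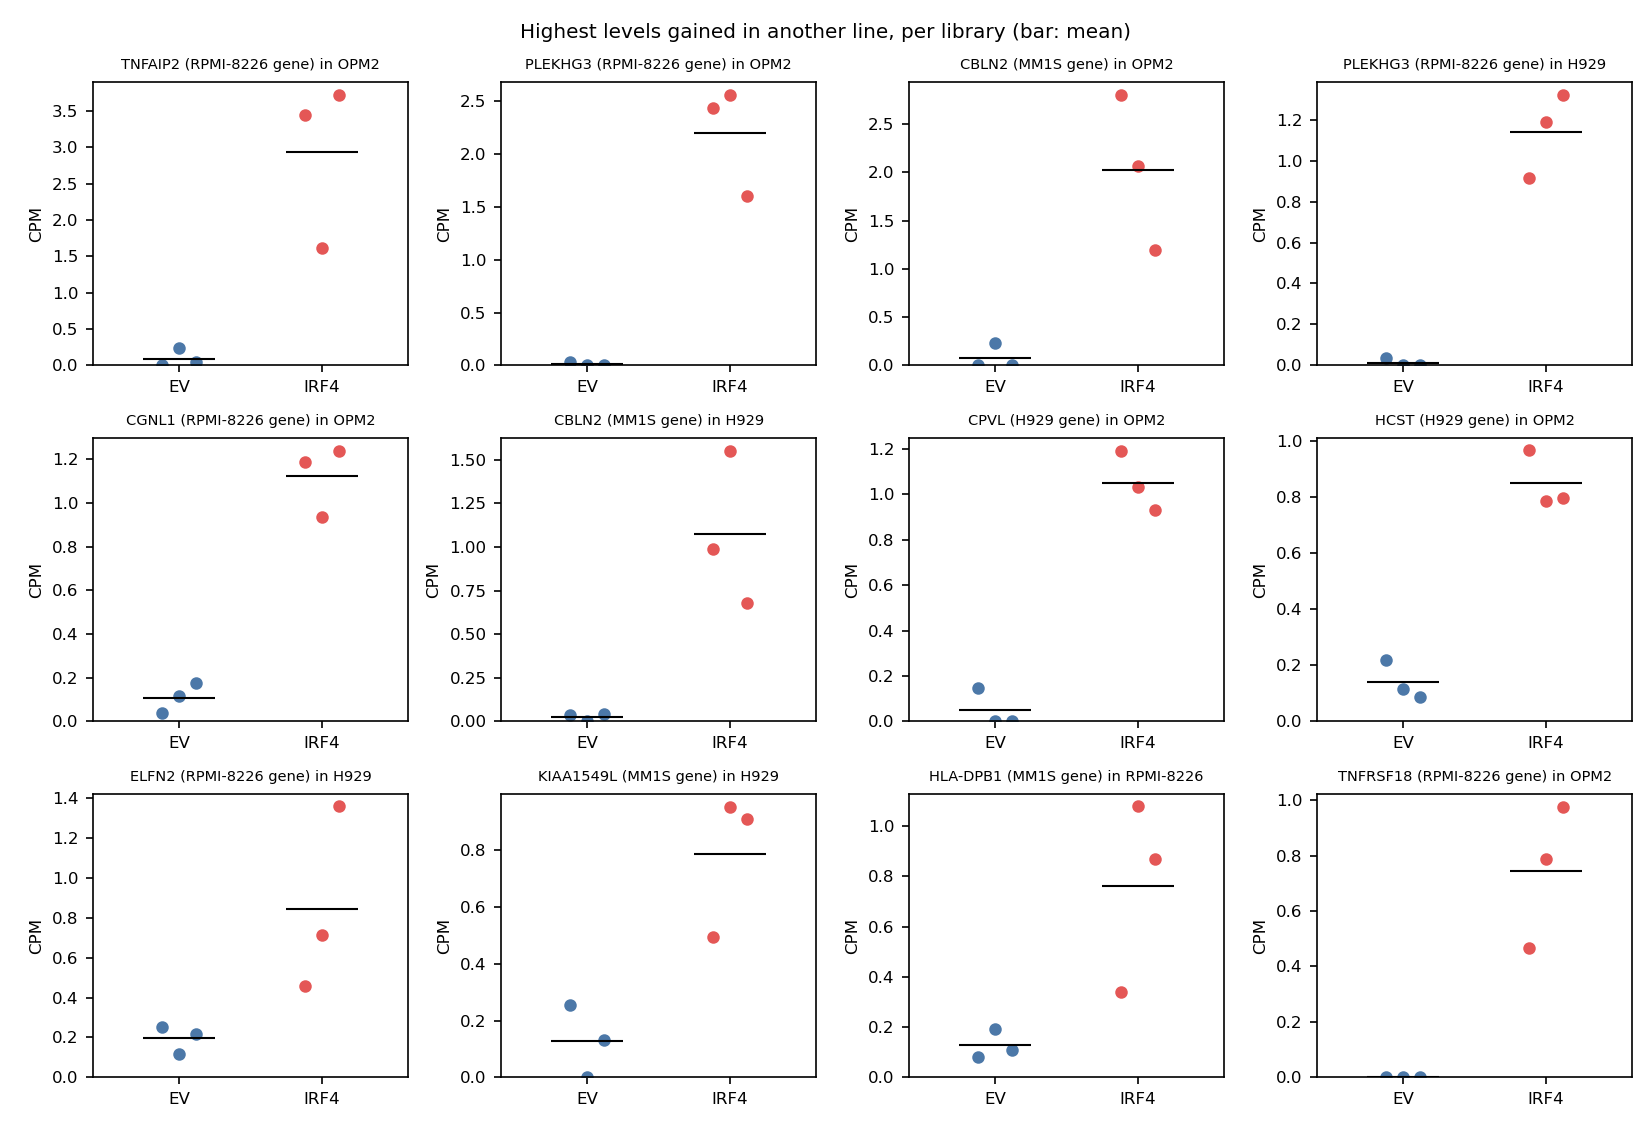
CPM per library (points) with the group mean (bar) for the 12 highest levels gained in another line without overlap, EV guide in blue and IRF4 guide in red; each axis has its own range from 0. All IRF4 libraries are above all EV libraries, with means from 0.743 CPM (TNFRSF18 in OPM2) to 2.93 CPM (TNFAIP2 in OPM2).

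Within the IRF4 libraries alone, all 78 genes were called higher in the own line than in each of the other 3. Genes chosen for so wide a gap between the same lines could hardly lose it, so this count is a description and supports nothing further. The smallest difference was that of CGNL1, 3.18 on the log2 scale. Judged by the cutoffs that chose them, 35 genes still had at least 20 CPM in the own line and at most 0.2 CPM elsewhere: 28 of the RPMI-8226 genes, 5 of H929, 1 of MM1S and 1 of OPM2. The own-line level of 12 genes dropped below 20 CPM, 33 genes passed 0.2 CPM in another line, and 2 did both. Those below 20 CPM were IGKV3D-11, FOXJ1 and KIAA1755 in H929, FEZF1, FEZF1-AS1 and HLA-DRB5 in MM1S, and THBD, CGNL1, KRT6B, AGTR1, LINC00052 and RUBCNL in RPMI-8226. Without the second IRF4 library of OPM2, 8 H929 genes instead of 5 met both cutoffs.

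**Figure D5:**
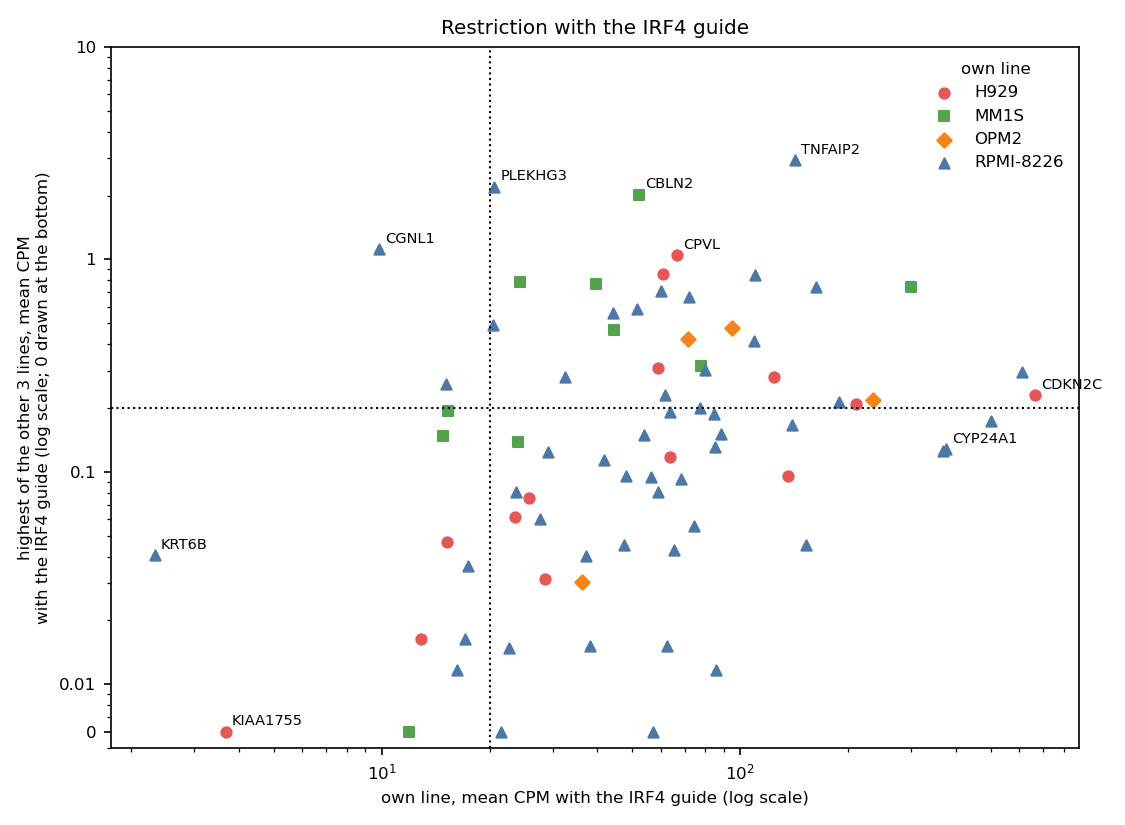
Mean CPM in the own line (x axis) and in the highest of the other 3 lines (y axis) with the IRF4 guide for the 78 genes, both on log scales with 0 drawn at the bottom; dotted lines mark 20 and 0.2 CPM. The 35 genes at the lower right met both cutoffs, and TNFAIP2 at 2.93 CPM elsewhere and KRT6B at 2.33 CPM in its own line lie farthest from them.

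Since the EV libraries that chose the genes also serve as the controls, a low other-line EV value or a high own-line EV value could arise partly through the choice. The genes were therefore chosen again without EV replicate 3 of each line and the IRF4 libraries were compared with that replicate alone, where the spread comes from the other groups. This gave 77 genes, 71 of them shared with the 78. In the own line 19 fell and 17 rose: 6 and 13 for RPMI-8226, 6 and 2 for H929, 4 and 1 for MM1S, 3 and 1 for OPM2. In other lines 20 combinations were called higher, 11 of them in OPM2, 8 in H929, 1 in MM1S and 0 in RPMI-8226.

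Some genes of these lists lay near each other, though only 9 of the 156 nearest coding neighbours were members. Pairs of members within 1000000 bases numbered 13, such as KRT6B and KRT6C, THBD and CD93, EXOC3L4 and TNFAIP2, and MAGEB2 and MAGEB1 (23.6 kb apart). The widest gap was 972 kb (IGKV3-20 and IGKV3D-15), and several pairs were copies within a gene family. No background was computed for the number of pairs. In 12 of the pairs both genes belonged to the same line; the exception was CBLN2 of MM1S and NETO1 of RPMI-8226, 104 kb apart on chromosome 18. For 19 of the 78 genes (24.4%) a nearest protein-coding gene on either side followed the same line, with at least 5 CPM there and no more than a 10th of that elsewhere. Over 156 neighbours 20 did so, but 7 of these were members themselves, chosen for that pattern. Of the 147 neighbours that were no members 13 (8.84%) followed, next to 12 genes. Over all coding genes the share was 0.256% for OPM2 to 1.40% for RPMI-8226.

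Some neighbours were themselves abundant. PRKD3, 19.8 kb from QPCT, was at 2660 CPM in MM1S and at most 174 elsewhere. THBS2, the next coding gene to the right of SMOC2 (548 kb), was at 506 CPM in RPMI-8226 and at most 0.358 elsewhere. With the IRF4 guide THBS2 stood at 53.4 CPM in RPMI-8226. To the left of SMOC2, the nearer DACT2 (121 kb) was at 0 CPM in the EV libraries of every line. FAF1, 0.478 kb from CDKN2C on chromosome 1, was at 102 CPM in H929 and at 0 to 0.778 in the other lines, whereas RNF11, on the same chromosome, was at 75.8 to 127 CPM in every line. For 51 genes a nearest coding gene was expressed at 5 CPM or more in another line. Some neighbours, such as PRKD3, also followed the line, and no background was computed for this count. Whether gene dosage or chromatin differed at these loci was not tested.

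Promoter sequence was looked at in the 250 bases ahead of annotated transcription starts, of which RefSeq (GRCh38.p14) supplied 60 for 43 of the 78 genes. A ratio of observed to expected CpG of at least 0.6, usual for promoters of housekeeping genes, was found in 48.3% of these promoters, in 47.5% of all 35116 promoters and in 82.1% of promoters of genes with at least 20 CPM in all 4 lines. GAAA followed by GAAA after 2 bases of any kind, the core of the interferon-stimulated response element, was found on either strand in 1 of 60 (1.67%; 3.02% of all). GGAA followed by GAAA after 2 such bases, the ETS-IRF composite element that IRF4 binds with an ETS partner, was found in 2 of 60 (3.33%; 2.41% of all). The 2 motifs can overlap in their letters, and a match is not evidence of binding.

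The promoters with a match belong to EXOC3L4 and QPCT, both among the 16 of 74 genes of other lines called higher in OPM2. The QPCT call there (adjusted p = 0.0337) was lost without OPM2 IRF4 replicate 1 (0.212) or OPM2 EV replicate 1, 2 or 3 (0.107, 0.0667 and 0.0738). They are shown with the promoter of TNFAIP2, the neighbour of EXOC3L4 with the highest level gained. All are on the plus strand, 5′ to 3′, and those of EXOC3L4 and TNFAIP2 precede starts that lie inside the annotated span of the gene. Capitals mark the matches in EXOC3L4 (the composite element first, then the response element core) and QPCT (the composite element, on the minus strand), and the CpG dinucleotides in TNFAIP2, 30 in 250 bases.
EXOC3L4 (chr14:103094475-103094724): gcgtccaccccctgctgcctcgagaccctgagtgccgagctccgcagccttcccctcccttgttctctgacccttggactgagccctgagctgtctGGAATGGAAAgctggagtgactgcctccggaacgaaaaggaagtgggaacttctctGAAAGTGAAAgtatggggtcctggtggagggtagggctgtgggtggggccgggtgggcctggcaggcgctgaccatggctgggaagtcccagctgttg
TNFAIP2 (chr14:103123211-103123460): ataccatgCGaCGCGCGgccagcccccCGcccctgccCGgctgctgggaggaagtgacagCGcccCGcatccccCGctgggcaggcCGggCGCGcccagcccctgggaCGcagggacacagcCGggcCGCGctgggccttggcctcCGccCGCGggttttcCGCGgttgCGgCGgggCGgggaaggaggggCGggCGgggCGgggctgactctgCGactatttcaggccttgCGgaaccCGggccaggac
QPCT (chr2:37344380-37344629): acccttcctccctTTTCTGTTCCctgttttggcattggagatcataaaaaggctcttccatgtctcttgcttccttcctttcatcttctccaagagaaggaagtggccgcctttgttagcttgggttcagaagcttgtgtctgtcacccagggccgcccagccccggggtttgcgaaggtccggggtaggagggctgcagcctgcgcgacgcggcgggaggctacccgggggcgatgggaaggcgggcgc

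By sequence family, the 78 genes held 6 immunoglobulin V segments, 4 keratins, 2 cancer-testis genes, 2 HLA genes, 2 long non-coding RNAs with LINC or antisense names, the solute carrier SLC12A8 and the detoxifying gene UGT2B17, and no gene of the homeobox, cadherin or zinc finger (ZNF, ZSCAN) lists. All 6 V segments fell in their own line. Over the whole immunoglobulin list, with 65 genes tested, 7 rose and 13 fell in H929 and 3 rose and 14 fell in OPM2. Of 50 collagens and keratins tested, 11 rose and 8 fell in RPMI-8226. Other cancer-testis genes were shared between lines: MAGEA3 was at 179 CPM in H929 and 223 in OPM2, and fell in both (-0.26 and -0.46).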

How the data were processed

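RNA sequencing of 23 libraries was deposited as raw counts per gene and as log2 RPKM values. Counts were made by the authors with Subread and featureCounts on GRCh38/hg38, and limma was used, per the submitters' processing notes. The log2 values were deposited by the authors and were used here only in alternatives. The sources used here do not give strand handling.

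CPM was the count over the library total. Counts were fitted in edgeR 4.0.16 (R 4.3.3) with the robust quasi-likelihood test, 1 mean per group, filterByExpr by group and TMM factors. Benjamini-Hochberg adjustment ran over 16468 genes for each contrast, and the threshold was 0.05. Alternatives used DESeq2 1.42.0 and limma 3.58.1. The fit was tested on simulated data. Intervals and the floor of 3 counts cover counting error only.

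The members and lists were chosen with earlier results of these data known. Genes named by rule were, for each line, the 4 members with the highest EV level, the 4 largest called falls and rises without overlap, the 4 highest gains without overlap, and the 2 genes on either side of the 20 CPM cutoff. Other named genes were chosen after their values were seen.

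Same-numbered libraries deviated together over 10130 genes in H929 (r = 0.393, 0.185 and 0.296), OPM2 (0.395, 0.364 and 0.390) and RPMI-8226 (0.349, 0.243 and 0.289). In MM1S, with 2 pairs, r was 0.090 and 0.109. Between different lines, same-numbered libraries had a median r of 0.195 over 66 pairs. Libraries with different numbers had -0.098 over 132 pairs. The main fit had no term for the replicate number.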

Additional observations from a re-analysis of the deposited data

Results flagged for a closer look

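The change in another line was set against the change in the own line, and 32 of the 39 gains differed from it by the edgeR test of the difference (Benjamini-Hochberg adjusted p under 0.05). Since these combinations were picked because the other line was called higher, a positive difference was largely built in, and the values are a description. Values are the log2 change in the gaining line minus that in the own line. Where the EV libraries had no count the fitted value depends on the prior count and is no bound.

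In OPM2 the difference was 3.58 for CPVL and 1.45 for HCST, both H929 genes. For MM1S genes in OPM2 it was 2.46 for QPCT, 5.63 for CBLN2 and 4.13 for ROR2. RPMI-8226 genes in OPM2 differed by 6.22 (TNFRSF18), 5.10 (CD93), 4.37 (TNFAIP2), 1.98 (ZMAT4), 3.79 (EXOC3L4), 4.78 (CGNL1), 6.51 (PLEKHG3) and 2.10 (SIGLEC7).

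In H929 the MM1S genes differed by 2.39 (UGT2B17), 4.64 (CBLN2), 2.61 (KIAA1549L) and 4.90 (FEZF1). RPMI-8226 genes in H929 differed by 1.68 (PPL), 3.87 (RASAL1), 2.98 (CACNG4), 1.31 (ELFN2), 2.64 (AIF1L), 2.96 (ADGRB1), 4.15 (BCHE), 6.09 (ZMAT4), 2.67 (NTSR1), 5.63 (PLEKHG3) and 5.14 (SIGLEC7).

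In MM1S the RPMI-8226 genes RASAL1 and RUBCNL differed by 5.21 and 6.19. In RPMI-8226 the MM1S genes QPCT and HLA-DPB1 each differed by 2.79.

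Several of the gains behind these values were lost on leaving out 1 library. In H929 those of PPL, CACNG4 and RASAL1 were lost without IRF4 replicate 3 (adjusted p = 0.0537, 0.0519 and 0.0841) or EV replicate 1 (0.0615, 0.109 and 0.105), and RASAL1 also without IRF4 replicate 2 (0.0531) or EV replicate 3 (0.0853). UGT2B17 was lost in H929 without EV replicate 1 (0.159), and FEZF1 without IRF4 replicate 2 (0.123) or EV replicate 1, 2 or 3 (0.107, 0.0517 and 0.0879). SIGLEC7 was lost in OPM2 without IRF4 replicate 3 (0.105) or EV replicate 3 (0.0769).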

How the results depend on the processing

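No called result changed direction; some that were not called crossed 0. All 78 genes were higher in the own line than in every other line with each library left out. Of 47 own-line calls 12 held under every alternative, and 30 when limma across all lines was set aside. Of 39 gains 17 held under every alternative that tested them, 5 of them not tested with the line fitted alone, and 19 with limma set aside. DESeq2 called 1 OPM2 gene lower. Without a low-count filter MM1S had 5 gains. With limma on the deposited log2 RPKM values, 4 genes were lower and 1 higher in H929 with 10 gains, 1 and 0 in MM1S, 1 and 0 in OPM2, and 3 and 2 in RPMI-8226. With each line fitted alone OPM2 had 7 gains, H929 6, RPMI-8226 1 and MM1S 0, as only 14 of the 39 were tested, and 8 MM1S genes were lower. The replicate block within each line left 0 gains in MM1S. Limma on each line alone, added after seeing the data, gave 6 gains in H929. With EV replicate 3 held out there were 8 gains in H929, 1 in MM1S and 0 in RPMI-8226, 1 OPM2 gene higher and 6 RPMI-8226 genes lower.

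The cutoffs set the counts. With at least 40 CPM in the own line, H929 had 4 lower, 11 gains and 2 still restricted, MM1S 2 lower, 0 higher, 1 gain and 0 restricted, OPM2 1 higher, 9 gains and 0 restricted, and RPMI-8226 5 lower, 11 higher and 17 restricted, with 46 genes higher in the own line. With at least 10 CPM, 48 RPMI-8226, 9 H929, 6 MM1S and 2 OPM2 genes stayed restricted, while MM1S had 8 lower and 3 higher and RPMI-8226 26 higher. With at most 0.1 CPM elsewhere, H929 had 0 higher, 11 gains and 3 restricted, MM1S 0 higher and 0 restricted, OPM2 1 lower and 0 higher, and RPMI-8226 1 gain and 17 restricted. With at most 0.5 CPM, H929 had 7 higher, 29 gains and 11 restricted, MM1S 10 lower, 3 higher, 8 gains and 5 restricted, OPM2 5 lower, 30 gains and 6 restricted, and RPMI-8226 9 gains and 43 restricted, with 118 genes higher in the own line.

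With 1 library left out, lower and higher counts were 6 to 7 and 2 to 3 in H929, 4 to 5 and 1 in MM1S, 2 and 1 to 2 in OPM2, and 8 to 11 and 16 to 19 in RPMI-8226. OPM2 had 1 higher without its IRF4 replicate 3. Gains were 11 to 22 in H929, 0 to 5 in MM1S (5 without IRF4 replicate 3), 12 to 17 in OPM2 and 2 to 3 in RPMI-8226. Genes still restricted numbered 5 to 8 in H929, 1 in MM1S, 1 to 2 in OPM2 (2 without H929 IRF4 replicate 2) and 27 to 29 in RPMI-8226. Where the cause of a change is not given, the cause was not tested.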

Other observations

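Gains in another line were set against the call in the own line. Of the 23 genes that rose in the own line 11 gained elsewhere (47.8%), of the 24 that fell 6 did (25%), and of the 31 not called 11 did (35.5%). No test was made of these shares.

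Summed over genes that were not called in a given other line, the share of the own-line level ranged from 0 to 0.147% with the EV guide and from 0 to 0.223% with the IRF4 guide. The IRF4 mean was the higher one in 10 of 12 line pairs.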
